A study of Mus musculus with 6 samples.

Results

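The IFIT family (interferon-induced proteins with tetratricopeptide repeats) was followed in cultured mouse astrocytes that carried a BRAF KE plasmid and in cultures that carried none. Its members were taken by gene name from the deposited table and are Ifit1, Ifit2, Ifit3, Ifit3b, Ifit1bl1 and Ifit1bl2, which makes 6 of 55357 listed genes. The cells came from the cortex of C57BL/6 embryos at embryonic day 18. In the 3 KE cultures (genotype K499E), a plasmid drove FLAG-tagged BRAF KE, a constitutively active form of the kinase BRAF, from the CMV promoter, which is not specific to a cell type. The 3 NT cultures (genotype naive) were not transfected, all 6 were harvested at 48 hours, and RNA was sequenced from stranded mRNA libraries. Neither an empty plasmid nor BRAF WT was given to any of these cultures. The mutation, the BRAF dose, the plasmid itself and the transfection procedure therefore cannot be told apart in any comparison of KE with NT. For staining, the paper transfected such astrocytes together with a GFP plasmid, and it does not say whether these cultures received one. The labels do not say whether the 3 cultures of a group came from separate preparations, and the p-values measure the spread between these cultures only.

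IFIT genes are nearly silent in resting cells and are among the transcripts that type I interferon raises most. Interferon bound to its receptor activates the kinases JAK1 and TYK2, and transcription factors that include STAT2 and IRF9 then bind the interferon-stimulated response element, a repeat of TTTC (GAAA on the other strand), before the target genes. IRF3 and IRF7 bind the same kind of element when nucleic acid sensors are active. IFIT1 binds capped RNA that lacks ribose methylation next to the cap and keeps it from being translated, IFIT3 was described in human cells as a partner that stabilizes IFIT1, and IFIT2 restricts viruses and can promote apoptosis. In mice the family has been studied in the brain as a restriction factor of neurotropic viruses.

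All members lie within 111.9 kb of chromosome 19 in GRCm39, from 34527932 to 34639833. In order of position these are Ifit2 (plus strand, chr19:34527932-34554524), Ifit3 (plus strand, chr19:34560899-34566443), Ifit1bl1 (minus strand, chr19:34570291-34579356), Ifit3b (plus strand, chr19:34585328-34590801), Ifit1bl2 (minus strand, chr19:34594449-34639833) and Ifit1 (plus strand, chr19:34618271-34632174). Ifit1 lies wholly within the span of Ifit1bl2, which is on the opposite strand. The sources used here do not say whether the counting used strand, so reads of these 2 genes may not be fully separated. Ifit3 and Ifit3b are near-identical copies: their coding sequences of 1209 bases matched at 1198 positions (99.1%), and 56.3% of the 31-base words of the Ifit3 transcript also occur in that of Ifit3b. Ifit1bl1 and Ifit1bl2 shared 88.1% of aligned coding positions, and every pair outside these and Ifit1 with its 2 like genes lay between 57.1% and 60.9%. Ifit2 shared no 31-base word with another member, so its value is the least open to reads being divided between members.

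The sequences before the annotated starts were read from GRCm39 because the members changed together, and TTTC followed by any 2 bases and TTTC again (GAAA, any 2 bases and GAAA on the other strand, overlaps allowed) was searched in the 250 bases before and 50 after each start. Of the canonical windows of the members, 5 of 6 held a match and 4 held 2 matches. Among 21770 protein-coding genes, 3.84% of such windows held at least 1 match and 0.294% held 2 or more. The canonical starts of Ifit1 and Ifit1bl2 have 127 bases between them and point away from each other, so both windows hold the same pair of matches. That interval is shown on the plus strand (chr19:34618144-34618270), with the matches in capitals:
Ifit1bl2 to Ifit1: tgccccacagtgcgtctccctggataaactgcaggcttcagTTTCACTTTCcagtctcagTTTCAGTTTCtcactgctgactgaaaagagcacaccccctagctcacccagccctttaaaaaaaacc
Beside it, 150 bases directly before the Ifit3 start (chr19:34560749-34560898) and the like stretch upstream of Ifit3b (chr19:34585145-34585294) show how alike the copies are outside the coding sequence, with 147 of 153 aligned columns matching. The Ifit3b stretch was placed to align with that of Ifit3 and ends short of the annotated Ifit3b start, so its first match begins 159 bases before that start, against 126 bases for Ifit3:
Ifit3: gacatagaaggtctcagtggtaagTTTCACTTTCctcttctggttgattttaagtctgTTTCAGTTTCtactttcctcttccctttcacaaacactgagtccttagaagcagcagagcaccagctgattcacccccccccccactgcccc
Ifit3b: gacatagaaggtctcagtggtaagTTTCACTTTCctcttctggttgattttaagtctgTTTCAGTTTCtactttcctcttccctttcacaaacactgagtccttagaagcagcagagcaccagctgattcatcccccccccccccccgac
Ifit1bl1 held a single match, shown in the 150 bases before its start on the minus strand (chr19:34579357-34579506):
Ifit1bl1: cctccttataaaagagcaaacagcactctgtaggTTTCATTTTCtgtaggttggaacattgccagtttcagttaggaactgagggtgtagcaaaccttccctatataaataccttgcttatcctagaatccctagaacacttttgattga
None of the 7 annotated starts of Ifit2 had a match in its window. The Ifit2 gene as a whole held 8 matches, and the nearest before its start codon lay 173 bases upstream of it. That match ends 16 bases before the exon with the start codon and lies inside a longer form of that exon in 1 annotated transcript (plus strand, chr19:34547583-34547612):
Ifit2: tactttctggTTTCAATTTCtcttctttgg
A match is a description of these letters, and binding was not measured.

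All 6 members were upregulated in KE, by a log2FC from 1.78 for Ifit1bl1 to 4.19 for Ifit3b, with a median of 3.44 against 0.00183 over all 15280 tested genes. The log2FC is the difference of log2(normalized count + 1) between groups, which understates the change of low genes. It was tested by limma over all genes with a mean of at least 10, and a gene was called at a Benjamini-Hochberg adjusted p under 0.05. In that comparison 25.3% of all tested genes were called higher in KE, 26.0% lower and 51.3% in either direction. Every KE culture was above every NT culture for each of the 6 members, as for 30.1% of all tested genes, while 29.9% had every KE culture below every NT culture. Each member had a mean above 10 in the NT cultures alone (11.4 for Ifit1bl1, the lowest), so none passed the filter only through KE. In a bulk culture, more cells that carry a transcript and more of it per cell cannot be told apart.

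Ifit3 had the highest normalized counts of the family, before any correction for gene length. Its normalized counts (gene counts divided by a size factor for each library) were 3447, 4167 and 2253 in NT replicates 1, 2 and 3 and 51854, 52600 and 52484 in KE replicates 1, 2 and 3. The KE cultures lay within 1.01-fold of one another, and the lowest was 12.4 times the highest NT culture. This gave 52313 ± 401 in KE against 3289 ± 967 in NT (mean ± SD, n = 3 each). The log2FC was 4.04 ± 0.17 (standard error), and limma put the adjusted p at 2e-08. Ifit3b, its near-identical copy, was 1018, 1307 and 672 in NT and 17513, 17638 and 17814 in KE, and its log2FC was 4.19 ± 0.18 (standard error; limma, adjusted p = 2.2e-08). Both copies followed the same order over the NT cultures, and their division of reads is uncertain. Summed before the fit, they were 4465, 5473 and 2925 in NT and 69366, 70238 and 70298 in KE, and the log2FC of the pair was 4.08 ± 0.17 (standard error).

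Ifit1, whose product binds capped RNA without ribose methylation, was 2373, 2644 and 1454 in NT and 23297, 22420 and 23634 in KE. The KE mean of 23117 ± 627 was 10.7 times the NT mean of 2157 ± 624 (SD, n = 3 each), with a log2FC of 3.47 ± 0.17 (standard error; limma, adjusted p = 5.2e-08). Ifit2 was 1625, 1573 and 1496 in NT and 16288, 15337 and 18272 in KE. It had the closest NT values of the family and the widest KE values of the 4 abundant members, and its log2FC was 3.41 ± 0.07 (standard error; limma, adjusted p = 2.5e-10). The ratio of the means of Ifit2 was 10.6, close to that of Ifit1, and their log2 ratio within a culture differed between the groups by 0.06 with overlapping values.

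The Ifit1-like genes Ifit1bl2 and Ifit1bl1 were far lower in normalized counts in both groups, and also per kilobase as given further on. Ifit1bl2, which shares the interval before its start with Ifit1, was 30.7, 40.4 and 32.4 in NT and 244, 245 and 255 in KE (log2FC 2.82 ± 0.16, standard error; limma, adjusted p = 1.8e-07). The KE mean of 248 ± 6.25 (SD, n = 3) was 7.19 times the NT mean. Ifit1bl1 was 10.9, 16.6 and 6.68 in NT and 37.1, 47.4 and 34.4 in KE, and the lowest KE culture was 2.08 times the highest NT culture. Its log2FC of 1.78 had the widest error of the family (standard error 0.35; limma, adjusted p = 0.0015). A value of 1 in the table corresponds to approximately 1 read, so Ifit1bl1 rests on few reads in each library.

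**Figure D1:**
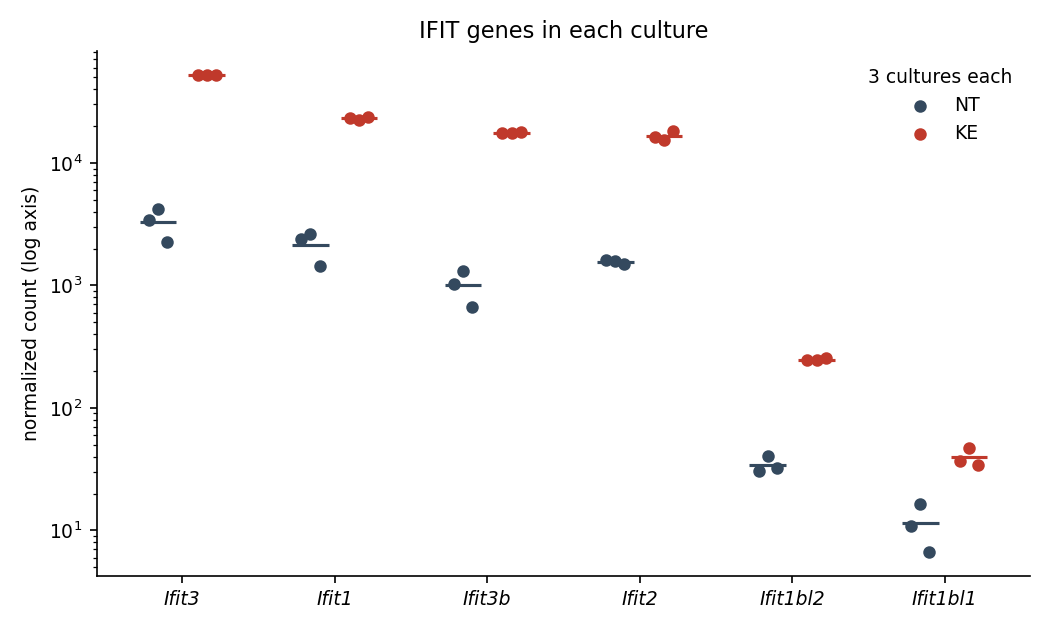
Normalized counts of the IFIT genes in each culture on a log axis, with 3 NT and 3 KE cultures as points and the group means as lines. The KE points lie above the NT points for every gene, and the NT points of every gene but Ifit2 are, for their level, spread more widely than their KE points.

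The size of the rise was not the same for every member. Ordered by log2FC, Ifit3b and Ifit3 stood highest (95% confidence intervals 3.80 to 4.58 and 3.67 to 4.40), followed by Ifit1 (3.09 to 3.84), Ifit2 (3.25 to 3.56), Ifit1bl2 (2.46 to 3.18) and Ifit1bl1 (1.01 to 2.55). Neighbours in that order overlapped in their intervals, except Ifit2 and Ifit1bl2. The log2 ratio of 2 members within a culture takes out what moves them together. Of the 15 pairs, 14 had ratios that did not overlap between KE and NT, each with a two-sided p of 0.1 from an exact permutation test over 20 divisions, the smallest that 3 cultures against 3 allow. The 15 pairs share 6 genes and are not independent, and 59.7% of all pairs of tested genes had ratios that did not overlap. The log2 ratio of Ifit1 to Ifit3 was -1.18 ± 0.04 in KE and -0.61 ± 0.06 in NT (SD, n = 3). That of Ifit3 to Ifit3b moved least among those 14, from 1.72 ± 0.05 in NT to 1.57 ± 0.01 in KE. Over all tested genes, the members ranked 25 (Ifit3b), 31 (Ifit3), 49 (Ifit1), 54 (Ifit2), 85 (Ifit1bl2) and 253 (Ifit1bl1) by log2FC.

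The make-up of the family shifted toward Ifit3 and Ifit3b in KE. Summed over the members, the normalized counts were 8504, 9748 and 5913 in NT and 109232, 108287 and 112493 in KE, which is 0.0264% ± 0.0064 (SD, n = 3) of all normalized counts in NT and 0.358% ± 0.0077 (SD, n = 3) in KE. Ifit3 made up 38.1% to 42.7% of that sum in the NT cultures and 46.7% to 48.6% in the KE cultures, and Ifit3b 11.4% to 13.4% and 15.8% to 16.3%. Ifit1 fell from between 24.6% and 27.9% to between 20.7% and 21.3% of the sum, while the Ifit2 shares of 16.1% to 25.3% in NT and 14.2% to 16.2% in KE overlapped. Ifit1bl1 and Ifit1bl2 each stayed under 1% in every culture. No test was made of these shares.

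**Figure D2:**
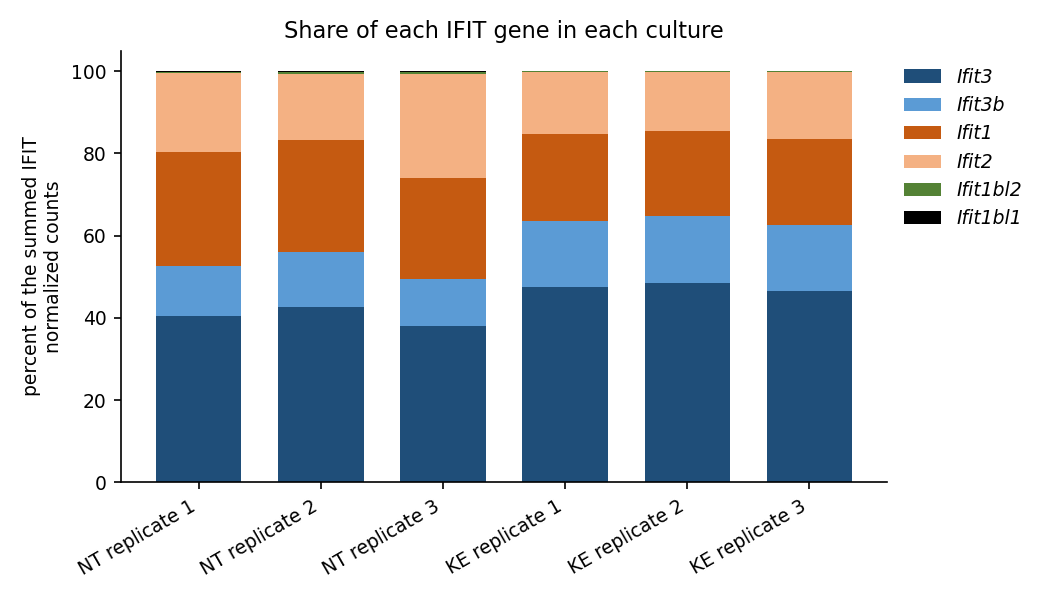
Percent of the summed IFIT normalized counts that each gene contributed in each of the 6 cultures, not corrected for gene length. Ifit3 and Ifit3b take a larger part of the bars in every KE culture than in any NT culture, and Ifit1bl2 and Ifit1bl1 are barely visible at the top.

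Normalized counts are not corrected for gene length, so the order of levels between members was read per kilobase of exon in Gencode vM39. The supplemental methods name an earlier Gencode release for counting, whose gene lengths were not used here. Per kilobase of exon, Ifit3 led with 18164 ± 139 normalized counts in KE and 1142 ± 336 in NT (SD, n = 3), followed by Ifit3b with 8646 ± 74.1 and 489 ± 156. Ifit1 had 3115 ± 84.5 per kilobase in KE and 291 ± 84.1 in NT, and Ifit2 had 2817 ± 254 and 265 ± 11. The ranges of Ifit1 and Ifit2 overlapped in both groups, and Ifit2 was above Ifit1 in NT replicate 3 and below it in the other cultures. With the length of the longest transcript, Ifit2 was above Ifit1 in the 3 KE cultures and in NT replicates 1 and 3, so their order is not settled. The ranges of Ifit3b and Ifit1 overlapped in NT because the cultures differed, and within each of the 6 cultures Ifit3b was above Ifit1. Ifit1bl2 (70.3 ± 1.77 in KE and 9.77 ± 1.47 in NT) and Ifit1bl1 (17.5 ± 3.03 and 5.04 ± 2.19) closed the order in all 6 cultures. The place of Ifit1 depends on its annotated length of 7421 bases, most of it outside the coding sequence of 1389 bases. Per kilobase of coding sequence, a length chosen after the data were seen, Ifit1 (16643 in KE) was above Ifit3b (14603 in KE).

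Most members ordered the NT cultures alike. NT replicate 3 was the lowest NT culture for 5 of 6 members and NT replicate 2 the highest for 5 of 6, where NT replicate 3 was the lowest for 32.0% and NT replicate 2 the highest for 34.9% of all tested genes. For Ifit1, Ifit3 and Ifit3b the highest NT culture was 1.82, 1.85 and 1.94 times the lowest, and the coefficient of variation was 28.9%, 29.4% and 31.8%. In KE the same genes varied by 2.71%, 0.767% and 0.857%. Ifit2 went the other way, with 4.16% in NT and 9.0% in KE. Among the transcription factors described next, NT replicate 3 was the lowest NT culture for 4 of 5, among the sensors and adaptors for 6 of 7, among the feedback inhibitors for 2 of 3, and among the receptors and kinases for 1 of 4. The summed level of microglia and macrophage markers was also lowest in NT replicate 3 among the NT cultures, as given with the other cell types. Its highest NT culture was NT replicate 1. The sums of endothelial and mural and of fibroblast and meningeal markers were lowest in NT replicate 3 too, and those of the remaining cell types were not. The part of these cells in this order was not tested.

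The transfected gene itself was at 35025, 34933 and 40978 in KE and at 925, 811 and 946 in NT, where plasmid and chromosomal transcripts of Braf are not separated. The other genes of the route from nucleic acid to IFIT were read as lists of ligands, receptors and kinases, transcription factors, sensors and adaptors, and feedback inhibitors. Without the ligands, all 19 genes listed here were tested, and 13 were upregulated, 3 downregulated and 3 not called, with a median log2FC of 0.51. Over all tested genes, 25.3% were called higher in KE, 26.0% lower and 51.3% in either direction.

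Of 7 type I interferon genes, Ifnb1, Ifna4 and Ifna5 passed the filter and were called higher in KE, and each is listed at 0 in all 3 NT cultures. Ifnb1, which encodes interferon beta, was 233, 198 and 235 in KE. Ifna4 was 90.8, 74.1 and 73.5 and Ifna5 was 19.8, 30.1 and 18.1 in KE. The Ifna genes are similar copies of one another and can share reads. Ifna2 did not exceed 5.44 and Ifna1 did not exceed 2.70 in any culture, and Ifne and Ifnk are listed at 0 in all of them. Ifnb1, Ifna4 and Ifna5 passed only through KE, so their calls follow in part from the filter. Ifna5, with a mean of 11.3 over all cultures, was not tested when any KE culture was left out. With a mean of at least 50, neither Ifna5 nor Ifna4 (mean 39.7) was tested.

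Receptor and kinase genes changed little. Ifnar2, which encodes a receptor chain, had a log2FC of 0.51, Tyk2 of 0.22 and Jak1 of 0.21, while Ifnar1, the other chain, had one of -0.27. All 4 were called by limma, as were 51.3% of all tested genes. Their adjusted p from limma was 3.2e-04, 0.035, 0.012 and 0.0018 in that order. The call of Tyk2 was lost without KE replicate 1 or 2, without NT replicate 1 or 3, with 75th percentile scaling and without the variance trend (adjusted p 0.050 to 0.11). Of the 5 transcription factor genes, 4 were upregulated and 1 was not called, where 25.3% of all tested genes were called higher. Irf7 was 1661, 2123 and 1215 in NT and 21714, 24490 and 22212 in KE, a log2FC of 3.81 (adjusted p = 1.8e-08 from limma). Stat2 and Irf9, which act together at the interferon-stimulated response element, had log2FC of 1.68 and 0.87. Irf1 was also upregulated (1.33). Irf3, which is activated by phosphorylation in cells that already hold it, was not called (log2FC -0.22, adjusted p = 0.073 from limma) and was called lower with 75th percentile scaling (adjusted p = 0.042), with the replicate number as a block (0.044) and without KE replicate 2 (0.014).

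The RNA sensors Ifih1 (MDA5), Dhx58 (LGP2) and Ddx58 (RIG-I) were upregulated, with log2FC of 2.20, 1.98 and 1.70. Their adaptor Mavs had a log2FC of 0.23 and was called, but not without NT replicate 1 (limma, adjusted p = 0.054), and the kinase gene Tbk1 had one of 0.07 and was not (adjusted p = 0.55 from limma). On the DNA side, Cgas had a log2FC of -0.22 and was not called (adjusted p = 0.1 from limma) except without the variance trend (0.033), and Sting1 fell from 847 ± 102 to 445 ± 44.1 (SD, n = 3), a log2FC of -0.92 (adjusted p = 3.3e-05 from limma). Among feedback inhibitors, Usp18, which removes ISG15 and blocks the interferon receptor, rose by a log2FC of 2.82 and Socs1 by 1.31, and Socs3 was lower (-0.50).

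**Figure D3:**
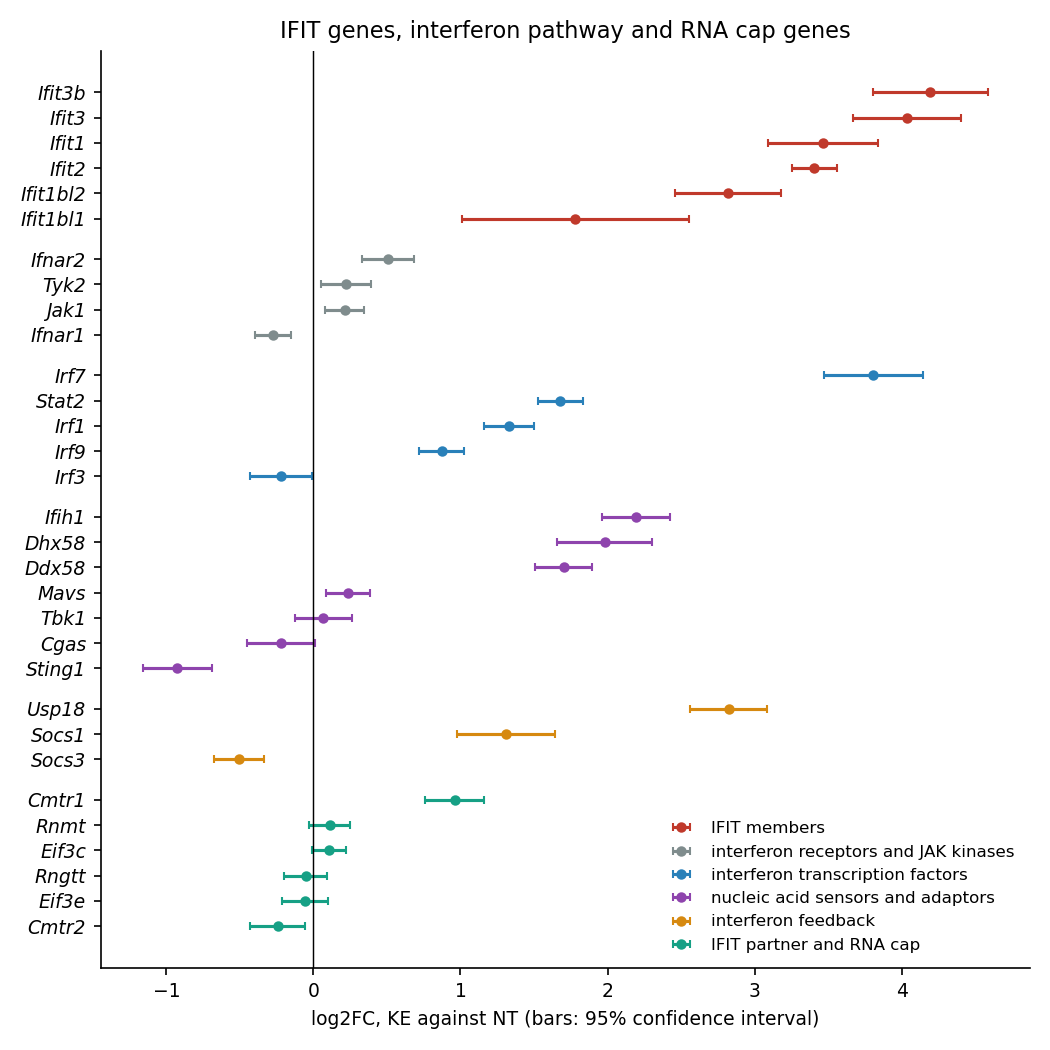
The log2FC of KE against NT with 95% confidence intervals for the IFIT genes, the interferon pathway without the ligands, and the IFIT partner and RNA cap genes. Among the genes outside the family, Irf7 (3.81) is the only one above Ifit1 (3.47), and the RNA cap genes other than Cmtr1 lie close to 0.

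Genes that set what IFIT proteins meet were listed separately. Cmtr1 methylates the ribose of the first transcribed nucleotide, the mark that shields RNA from IFIT1. It rose from 3512, 3643 and 2953 in NT to 7067, 5823 and 6789 in KE, a log2FC of 0.96 ± 0.09 (standard error; limma, adjusted p = 7.2e-06). Cmtr2, which methylates the next nucleotide, was 476, 446 and 457 in NT and 393, 382 and 388 in KE, a log2FC of -0.24 whose call (adjusted p = 0.033 from limma) was lost without any single culture, with no filter and with quantile normalization (0.050 to 0.094). The cap-forming enzymes Rngtt (-0.05) and Rnmt (0.11) and the eIF3 subunits Eif3c (0.11) and Eif3e (-0.06), with which IFIT proteins interact, were not called. This left 1 of 6 upregulated and 1 downregulated, where 25.3% of all tested genes were called higher and 26.0% lower.

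The 5 nearest protein-coding genes on each side were compared, of which 8 were tested, and 1 was upregulated, 6 were downregulated and 1 was not called, where 25.3% of all tested genes were called higher and 26.0% lower. Lipa, a lysosomal lipase gene 5.8 kb from Ifit2, was 2381, 2228 and 2077 in NT and 1609, 1706 and 1794 in KE (log2FC -0.39). Ch25h lies 75.4 kb away and encodes cholesterol 25-hydroxylase, an interferon-inducible enzyme of macrophages. It fell from 1221, 1310 and 1160 in NT to 58.7, 98.8 and 63.4 in KE, a log2FC of -4.08 ± 0.17 (standard error; limma, adjusted p = 2.2e-08). Fas, a death receptor gene at 222.8 kb, was the neighbour that rose (0.42). Acta2, at 294.9 kb, had a log2FC of -1.34 (adjusted p = 5.4e-05 from limma). On the other side, Slc16a12 at 2.8 kb did not pass the filter and did not exceed 12.5 in any culture, and Pank1 (-0.25) and Kif20b (-0.78) were lower. The call of Pank1 was lost without KE replicate 1, NT replicate 1 or NT replicate 2 (adjusted p from limma 0.053 to 0.094). Rpp30 (-0.28) lies 1421.3 kb away. Its call was lost without KE replicate 2 or 3, without NT replicate 1 or 3, with quantile normalization and without the variance trend (adjusted p from limma 0.067 to 0.14).

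**Figure D4:**
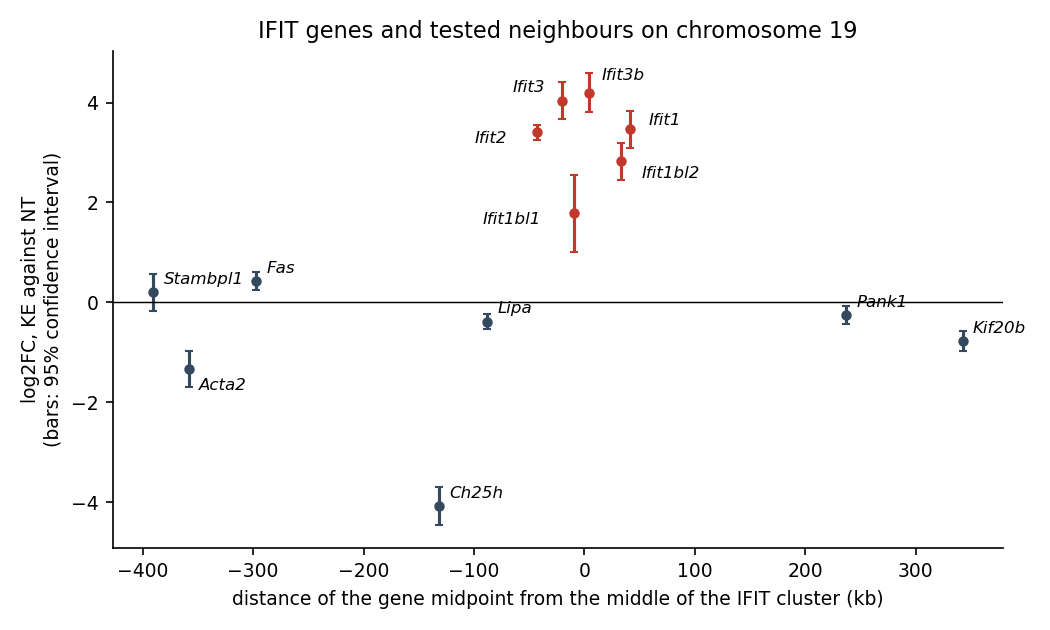
The log2FC of KE against NT with 95% confidence intervals for the IFIT genes (red) and their tested neighbours (dark), by distance of the gene midpoint from the middle of the cluster in kb. The neighbours lie between -4.08 (Ch25h) and 0.42 (Fas), and Rpp30 is too far away to be drawn.

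Beyond the lists, the genes with the most similar pattern were sought among 12067 other genes with a mean of at least 100. The measure was the Euclidean distance over the 6 cultures between log2 profiles, each set to 0 at its NT mean, and the mean profile of the members. The nearest were H2-T23 (distance 0.20), Isg15 (0.24), Ifi44 (0.41), Tnfsf10 (0.47) and Igtp (0.48), while the members themselves lay between 0.38 (Ifit1) and 2.64 (Ifit1bl1) from their mean. Isg15, a ubiquitin-like modifier, was 2224, 2619 and 1537 in NT and 18854, 20637 and 17485 in KE, and Ifi44 was 1625, 1468 and 977 in NT and 14181, 13494 and 15121 in KE. These genes were chosen for their likeness over the same 6 cultures, so their order of cultures is no separate evidence. With 2 groups, such a distance mostly reflects the size of the group difference.

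The cultures held astrocyte transcripts at high levels, with Gfap at 16537 or more, Aqp4 at 10405 or more and Slc1a3 at 38451 or more in every culture, and S100b at 31.5 or less. Other cell types were present too. The marker counts below stand beside 25.3% of all tested genes called higher in KE, 26.0% lower and 51.3% in either direction. All 12 microglia and macrophage markers were downregulated in KE while the IFIT genes rose, with a median log2FC of -3.34. Their summed normalized counts were 41284, 40241 and 35242 in NT and 3099, 4844 and 3123 in KE, and none of them was at 0 in any culture. Of the astrocyte markers, 7 of 10 were upregulated and 1 downregulated, with summed levels of 142105 to 150693 in NT and 194523 to 200354 in KE, and the call of Slc1a3 was lost with quantile normalization (limma, adjusted p = 0.21). All 7 tested oligodendrocyte lineage markers of 8 were downregulated, with sums of 35920 to 36217 in NT and 27105 to 31875 in KE and with Mog at 0 in 4 of the cultures. The calls of Olig1, Sox10 and Cspg4 were lost in 6, 5 and 4 settings that left out a culture or the variance trend. Of 5 tested neuron markers of 6, 1 was upregulated and 2 downregulated (sums 8448 to 9154 in NT and 6414 to 6591 in KE). Of 3 tested endothelial and mural markers of 6, 1 was upregulated and 1 downregulated (sums 756 to 767 in NT and 860 to 892 in KE), with Cldn5 and Cdh5 at or near 0. The downregulated one, Pecam1, lost its call without NT replicate 1 or 2 and with no filter (limma, adjusted p 0.057 to 0.072). With so few tested genes, the neuron and the endothelial and mural counts are not set apart from the shares over all genes. Of 5 fibroblast and meningeal markers, 2 were upregulated and 2 downregulated (sums 1559 to 2152 in NT and 1644 to 1748 in KE). Without KE replicate 3 or without the variance trend, the calls of Col1a2, Lum and Col3a1 were lost, which left Dcn alone, and other single cultures also ended 1 or 2 of them (limma, adjusted p 0.055 to 0.12). The part of these cells in the IFIT difference was not tested, and which cells carried the IFIT transcripts was not measured.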

How the data were processed

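RNA-seq values of 3 KE and 3 NT cultures were used, grouped by sample titles. The authors deposited normalized counts per gene, a signal made of gene counts divided by library size factors. In the supplemental methods, which name the study's other RNA samples, the authors trimmed reads with TrimGalore, aligned them with STAR to GRCm39, quantified them with Salmon on Gencode gene models and tested them with DESeq2 after adjusting unnamed batches. The labels name GRCh38 as the build, while the gene identifiers are those of mouse. Salmon divides reads among similar transcripts, so the values of near-identical members are uncertain.

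Division by size factors removes depth. The most frequent low value, taken as 1 read, put depth at approximately 24500000 (KE replicate 2) to 34100000 reads. Only 69.3% to 73.5% of values under 50 lay within 0.1 of a whole multiple, so no count test was run. The log2(normalized count + 1) of 15280 genes with a mean of at least 10 entered limma 3.58.1 (R 4.3.3) with the group as the only term and a variance trend, two-sided, with Benjamini-Hochberg adjustment over all of them. On simulated data with 200 of 15280 genes changed by a log2FC of 2, 196 of these passed the filter, and the fit recovered 195 of them and called 12 unchanged genes. The simulation gave every gene the same spread setting and changed few genes, where 51.3% of tested genes were called in the data. It checks that the fit runs and does not measure recovery at the spread of these genes. Coordinates, starts and lengths come from Gencode vM39 on GRCm39, in which 54749 of the 55357 identifiers were found. Alternatives were other pseudocounts, filters, scalings and lengths, no trend, a replicate block, summed copies and leaving out each culture.

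The named genes are the members, Braf, the pathway, partner and marker lists, the 5 nearest protein-coding genes on each side and the 5 most similar profiles. Members and lists were chosen with earlier results of these data known. A gene of the pathway list is not reported here and was left out of its counts.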

Additional observations from a re-analysis of the deposited data

How the results depend on the processing

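In each of the settings tried, all tested IFIT members were upregulated. The member log2FC ranged from 3.21 to 3.64 for Ifit1, 3.34 to 3.46 for Ifit2, 3.79 to 4.23 for Ifit3, 3.94 to 4.41 for Ifit3b, 1.48 to 2.07 for Ifit1bl1 and 2.69 to 2.94 for Ifit1bl2. Ifit1bl1 is not tested with a mean of at least 50. Summing Ifit3 with Ifit3b, and the less alike Ifit1bl1 with Ifit1bl2, leaves 4 features. The 1 downregulated RNA cap gene, Cmtr2, became 0 with no filter, with quantile normalization and without any single culture (0 to 0), and the cause was not tested. Same-numbered cultures deviated together with r of 0.06, 0.07 and 0.07 across genes, so the numbers are not taken to pair them. With the replicate block, 3967 genes were higher and 4079 lower in KE, against 3870 and 3974 without it, and 6 members were upregulated. Levels per kilobase moved with the length by construction. With the longest transcript, Ifit2 was 3392 in KE and 319 in NT and Ifit1bl2 was 73.2 in KE. With the coding length, chosen after seeing the data, KE and NT were 16643 and 1553 for Ifit1, 11796 and 1110 for Ifit2, 43269 and 2720 for Ifit3, 14603 and 826 for Ifit3b, 28.1 and 8.07 for Ifit1bl1, and 178 and 24.7 for Ifit1bl2. Of the 6 members, Ifit1bl1 had the lowest normalized counts in both groups and so rests on the fewest reads.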
